A study of Mus musculus with 12 samples.

Results

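The enzymes that remove superoxide and peroxides were followed through mouse kidneys after renal ischemia and reperfusion (IRI), an interruption of blood flow to the kidney followed by its return. The set was a fixed list of 10 genes: the superoxide dismutases Sod1, Sod2 and Sod3, catalase (Cat), the glutathione peroxidases Gpx1, Gpx3 and Gpx4, and the peroxiredoxins Prdx1, Prdx3 and Prdx5. They were found in the gene-level count table by their Entrez identifiers. All 10 were present among the 13124 genes of the table. The rule for the set is a list of names and uses no measured value, although earlier results of these data were known when the list was chosen.

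Superoxide is made when oxygen takes up a stray electron, chiefly in mitochondria and by NADPH oxidases. Superoxide dismutases turn it into hydrogen peroxide, which catalase splits in peroxisomes and which glutathione peroxidases and peroxiredoxins reduce with electrons from glutathione and thioredoxin. Proximal tubule cells are rich in mitochondria and peroxisomes and are the main source of the secreted glutathione peroxidase of plasma, the product of Gpx3.

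Total RNA came from whole saline-perfused kidneys of male C57BL/6 mice, with all cell types included, in 4 groups of 3 kidneys. Kidneys 1 to 3 were taken 24 h after a sham operation and had received no antibody. The other 9 were taken 24 h after IRI, and each of those mice had been given a monoclonal antibody 24 h before the injury: an isotype control (kidneys 4 to 6), an antibody to the granulocyte colony-stimulating factor receptor, labelled VR81 (anti-G-CSFR, kidneys 7 to 9), or an antibody to complement component C5, labelled BB5.1 (anti-C5, kidneys 10 to 12). There was no sham group with antibody and no injured group without one. The injury was unilateral, and whether the harvested kidney was in every case the injured one is not stated in the labels. They do not give the age of the mice, nor say that each kidney came from a mouse of its own, so the p-values below measure the spread between these kidneys.

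The libraries held 13200930 to 16324215 counts and shared one sequencing lane. Levels are given as CPM, the counts of a gene brought to a common library size with scaling factors from the trimmed mean of M values (TMM), and changes as log2 ratios with their standard error (SE) from edgeR's quasi-likelihood test. A gene is said to have risen or fallen where the Benjamini-Hochberg adjusted p over all 13124 genes was below 0.05. All 14 proximal tubule markers were detected, with summed levels of 42891 to 48303 CPM in sham and 12442 to 19562 CPM in isotype-treated kidneys. Kidneys 9 (anti-G-CSFR) and 11 (anti-C5) stood apart within their groups, with summed levels of 12 tubule injury markers of 12349 and 14899 CPM, against 1879 to 2271 CPM in the other 4 antibody-treated kidneys, 1653 to 2624 CPM in sham and 34885 to 40115 CPM in isotype-treated kidneys. The mRNAs of the antibody targets are not deleted or silenced in this design, so they do not check the labels. Csf3r, which encodes the G-CSF receptor, was at 1.49 ± 0.380 CPM (SD, n = 3) in sham, 11.4 ± 3.96 CPM in isotype-treated and 0.714 ± 0.436 CPM in anti-G-CSFR kidneys. In the anti-C5 group it was at 1.13 and 1.39 CPM in kidneys 10 and 12 and at 16.2 CPM in kidney 11.

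Between the sham operation and injury under the isotype antibody, 9 of the 10 enzymes fell and Prdx1 rose. Of all genes, 32.1% were called higher and 30.7% lower in this comparison. The median change of the 10 enzymes was -0.96 on the log2 scale, beside 0.03 for all genes. The falls ran from -0.54 for Prdx5 to -1.78 for Sod3. All 10 enzymes had group ranges that did not overlap, as had 69.2% of all genes. In RNA from whole kidneys, fewer cells of a type and less RNA per cell cannot be told apart. The markers of several cell types moved as well. All 14 proximal tubule markers fell, with a median of -2.52, and all 12 tubule injury markers rose, with a median of 3.66. Of 8 markers of the loop, distal tubule and collecting duct, 6 fell and 1 rose, with a median of -0.84. Neutrophil markers summed to 8.43 to 10.9 CPM in sham and 51.7 to 136 CPM with isotype over the 9 of 15 listed that are in the table, several of which are there only because of their level in injured kidneys, so no count of them is given. The 4 globin genes of red blood cells, which are rich in catalase and peroxiredoxin, did not pass the test. The fifth red cell marker, Slc4a1, which intercalated cells of the collecting duct also express, fell by 3.58 ± 0.434. Of 14 monocyte and macrophage markers 4 rose and 1 fell, of 8 endothelial markers 4 rose and 1 fell, of 5 podocyte markers 1 rose and 1 fell, and of 9 fibroblast and smooth muscle markers 7 rose and 0 fell. The counts for monocyte and macrophage markers and for podocyte markers do not exceed the shares over all genes. The part of these cell types in the changes of the enzymes was not tested.

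**Figure D1:**
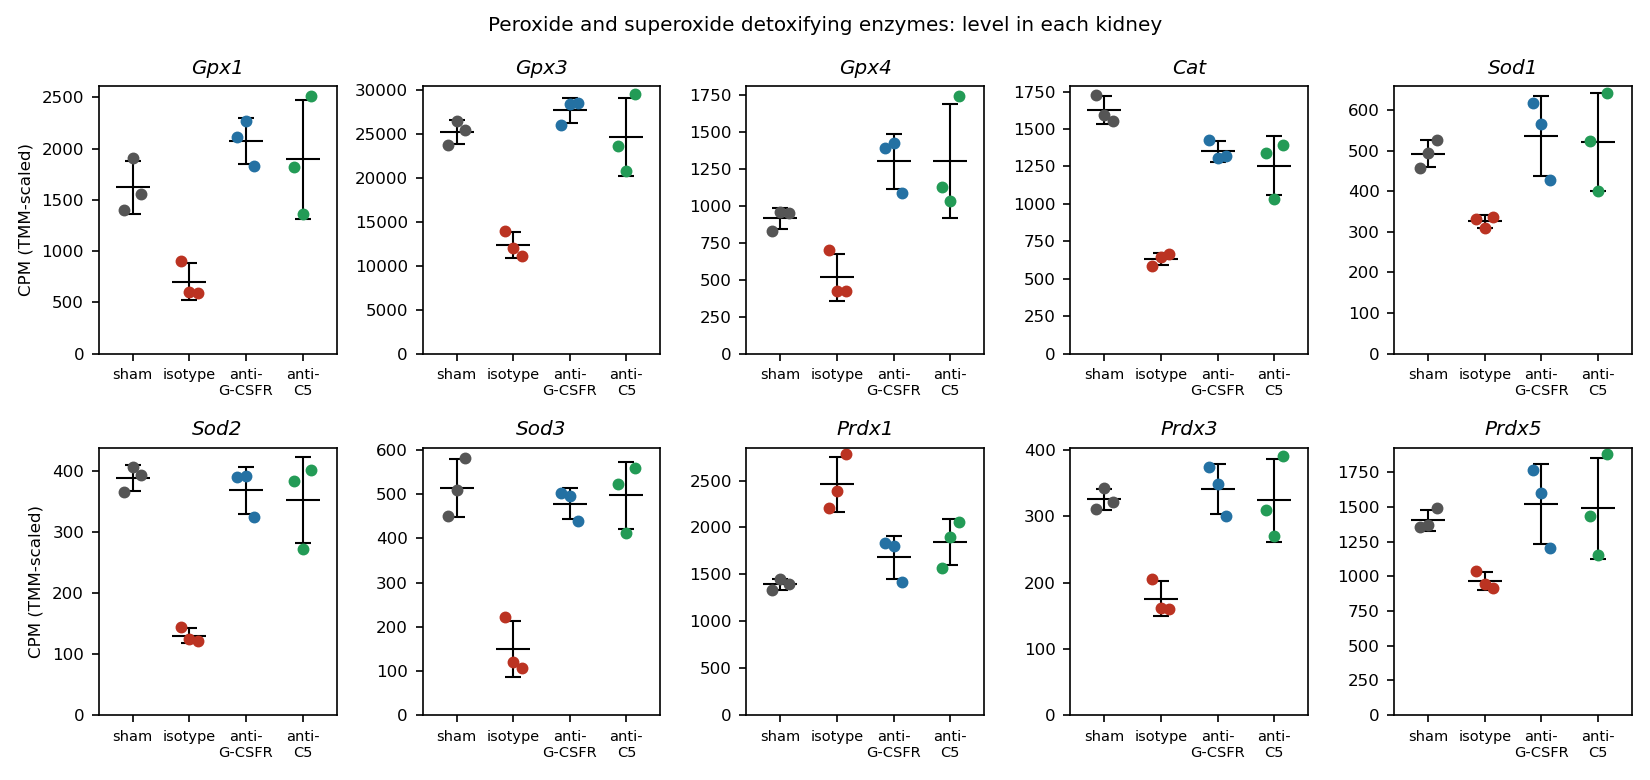
Level of each of the 10 enzymes in each kidney, in TMM-scaled CPM on an axis that starts at 0, by group. Dots are kidneys, horizontal bars group means and whiskers the SD of 3 kidneys. The isotype-treated kidneys lie below every other kidney for 9 enzymes and above every other kidney for Prdx1. The share of all genes with isotype-treated kidneys apart from every other kidney was not computed.

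Under either blocking antibody the same enzymes had levels apart from those of the isotype-treated kidneys. With anti-G-CSFR, 9 of the 10 were higher than with isotype and Prdx1 was lower, where 31.5% of all genes were called higher and 32% lower. With anti-C5, 9 were higher and Prdx1 was lower, where 30.5% of all genes were called higher and 29.8% lower. The median change of the 10 was 1.13 for anti-G-CSFR and 0.99 for anti-C5, beside -0.02 and -0.01 for all genes. In both comparisons all 10 enzymes had ranges that did not overlap with those of the isotype group, as had 67.2% of all genes for anti-G-CSFR and 62.7% for anti-C5. These comparisons share the isotype kidneys with each other and with the comparison to sham, so they are not independent, and their values are given side by side for each enzyme.

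**Figure D2:**
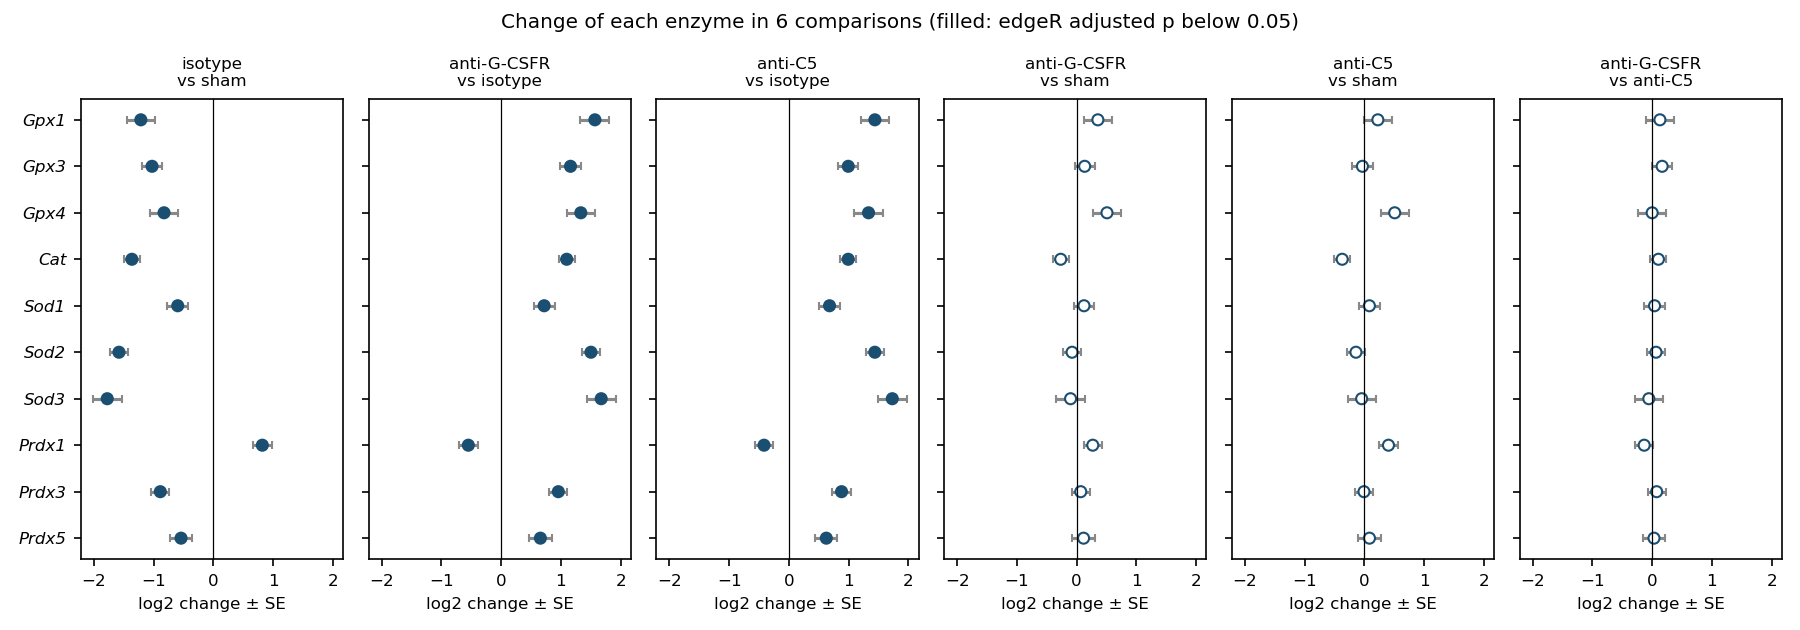
Log2 change of each enzyme with its SE in the 6 comparisons between groups; the first group named is compared with the second. Filled dots have an edgeR adjusted p below 0.05: all 10 enzymes in each of the 3 comparisons with the isotype group, and 0 in the other 3.

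Sod2 and Sod3 showed the deepest falls of the set. Sod2 (chr17:13006846-13040063, plus strand) encodes the manganese enzyme of the mitochondrial matrix. It was at 366, 408 and 394 CPM in the sham kidneys, 145, 124 and 121 CPM with isotype, 391, 392 and 324 CPM with anti-G-CSFR, and 384, 272 and 402 CPM with anti-C5. Every isotype-treated kidney lay below every other kidney. Sod2 was 2.99-fold lower with isotype than in sham (log2 change -1.58 ± 0.154 SE, edgeR adjusted p = 9.557e-06). It was 2.84-fold higher with anti-G-CSFR than with isotype (1.50 ± 0.153, adjusted p = 1.639e-05) and 2.71-fold higher with anti-C5 (1.44 ± 0.153, adjusted p = 2.61e-05).

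Sod3 (chr5:52363791-52371418, plus strand) encodes the secreted copper and zinc enzyme that binds to matrix and vessel walls. It measured 451, 510 and 581 CPM in sham, 222, 121 and 107 CPM with isotype, 502, 496 and 440 CPM with anti-G-CSFR, and 523, 413 and 559 CPM with anti-C5. Kidney 4 was the highest of the isotype group, and the group lay below every other kidney. The change from sham was -1.78 ± 0.243 (3.43-fold lower, edgeR adjusted p = 8.234e-05), and the changes from isotype were 1.67 ± 0.243 with anti-G-CSFR and 1.73 ± 0.243 with anti-C5.

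Sod1 (chr16:90220754-90226329, plus strand), the copper and zinc enzyme of the cytosol, changed least of the 3 dismutases. It ranged from 458 to 526 CPM in sham, 309 to 337 CPM with isotype, 427 to 619 CPM with anti-G-CSFR and 401 to 643 CPM with anti-C5. The isotype group lay below the other groups, whose ranges overlapped. Sod1 fell by 0.60 ± 0.176 from sham to isotype (edgeR adjusted p = 0.0109) and was higher than isotype by 0.72 ± 0.176 with anti-G-CSFR and 0.68 ± 0.176 with anti-C5. Scaled by library totals alone, the fall was 0.40 (adjusted p = 0.0295). Summed over the 3 genes, dismutase mRNA came to 1275 to 1501 CPM in sham and 554 to 700 CPM with isotype.

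Catalase (chr2:103453849-103485160, minus strand), the peroxisomal enzyme, was at 1730, 1592 and 1552 CPM in sham and at 582, 648 and 663 CPM with isotype. With anti-G-CSFR it measured 1429, 1305 and 1318 CPM and with anti-C5 1343, 1032 and 1393 CPM. The antibody-treated kidneys all lay above the isotype group and all below the lowest sham kidney. Cat was 2.57-fold lower with isotype than in sham (-1.36 ± 0.138, edgeR adjusted p = 1.159e-05), 2.14-fold higher with anti-G-CSFR than with isotype (1.10 ± 0.137) and 1.99-fold higher with anti-C5 (0.99 ± 0.137). Its spread within the isotype group was narrow, 631 ± 42.9 CPM (SD, n = 3), and kidney 4, the highest of that group in 7 other enzymes, was the lowest in Cat.

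Gpx3 (chr11:54902453-54910377, plus strand), the secreted plasma peroxidase, was among the 3 genes with most counts in every one of the 12 kidneys. It took 2.30% to 2.56% of all counts in sham, 1.24% to 1.54% with isotype, 2.42% to 2.86% with anti-G-CSFR and 2.16% to 2.72% with anti-C5. Its levels were 23717, 26427 and 25454 CPM in sham, 13994, 11952 and 11154 CPM with isotype, 26056, 28367 and 28553 CPM with anti-G-CSFR, and 23638, 20736 and 29514 CPM with anti-C5. The isotype group lay well apart, while the sham and antibody groups overlapped. Gpx3 fell by 1.03 ± 0.171 from sham to isotype (2.04-fold, edgeR adjusted p = 0.00031) and was higher than isotype by 1.16 ± 0.172 with anti-G-CSFR and 0.99 ± 0.171 with anti-C5. The 10 enzymes together took 3.09% to 3.43% of counts in sham and 1.92% to 2.24% with isotype, most of it Gpx3.

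Gpx1 (chr9:108338903-108340343, plus strand), the abundant cytosolic and mitochondrial selenoenzyme, gave 1399, 1909 and 1558 CPM in sham, 907, 604 and 587 CPM with isotype, 2117, 2274 and 1835 CPM with anti-G-CSFR, and 1817, 1359 and 2512 CPM with anti-C5. The isotype kidneys were again the lowest, and the anti-C5 group was the widest, with an SD of 581 CPM around a mean of 1896 CPM. Gpx1 was 2.32-fold lower with isotype than in sham (-1.21 ± 0.239, edgeR adjusted p = 0.000957), and higher than isotype by 1.57 ± 0.241 with anti-G-CSFR and 1.44 ± 0.240 with anti-C5.

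Gpx4 (chr10:80047166-80056439, plus strand) encodes the selenoenzyme that reduces lipid peroxides within membranes and holds back ferroptosis. It measured 833, 961 and 952 CPM in sham and 700, 424 and 425 CPM with isotype. It measured 1391, 1425 and 1090 CPM with anti-G-CSFR, and 1131, 1031 and 1743 CPM with anti-C5, so all 6 antibody-treated kidneys lay above the highest sham kidney. Gpx4 fell by 0.83 ± 0.237 from sham to isotype (edgeR adjusted p = 0.00945) and was higher than isotype by 1.33 ± 0.239 with either antibody. A transcribed processed pseudogene, Gpx4-ps2, lies elsewhere on the same chromosome, and how reads common to both were counted is not given in the sources used here.

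Prdx3 (chr19:60864051-60874556, minus strand), the peroxiredoxin of the mitochondrial matrix, ranged from 312 to 342 CPM in sham, 160 to 206 CPM with isotype, 300 to 375 CPM with anti-G-CSFR and 270 to 392 CPM with anti-C5. The isotype group lay below the other 3, which overlapped. Prdx3 was 1.85-fold lower with isotype than in sham (-0.89 ± 0.154, edgeR adjusted p = 0.0004), and higher than isotype by 0.96 ± 0.154 with anti-G-CSFR and 0.88 ± 0.154 with anti-C5.

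Prdx5 (chr19:6906697-6910106, minus strand), a peroxiredoxin of mitochondria, peroxisomes and cytosol, had the smallest change of the set between sham and isotype. It was at 1354, 1366 and 1491 CPM in sham, 1035, 944 and 915 CPM with isotype, 1762, 1598 and 1203 CPM with anti-G-CSFR, and 1437, 1151 and 1879 CPM with anti-C5. The isotype kidneys were the lowest 3 of the 12, but kidneys 9 and 11 came near to them. The change was -0.54 ± 0.187 from sham to isotype (edgeR adjusted p = 0.0241), 0.66 ± 0.187 from isotype to anti-G-CSFR (adjusted p = 0.00894) and 0.63 ± 0.187 from isotype to anti-C5 (adjusted p = 0.0125). The fall from sham missed the threshold without kidney 3 (-0.50, adjusted p = 0.073), without kidney 5 (-0.53, adjusted p = 0.0647), without kidney 6 (-0.50, adjusted p = 0.0727) and with scaling by library totals alone (-0.34, adjusted p = 0.0671). The difference between anti-C5 and isotype missed it without kidney 12 (0.42, adjusted p = 0.0628). In the annotation, 409 exon bases of Prdx5, 19.12% of its exons, overlap Trmt112 on the opposite strand; the libraries were strand-specific, but the strand setting of the counting is not given in the sources used here, so the 2 genes' reads may be mixed.

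Prdx1 (chr4:116685544-116700822, plus strand), the abundant peroxiredoxin of the cytosol, moved against the other 9. It was at 1336, 1447 and 1399 CPM in sham and at 2211, 2386 and 2781 CPM with isotype. With anti-G-CSFR it stood at 1831, 1797 and 1414 CPM and with anti-C5 at 1572, 1899 and 2058 CPM. The isotype kidneys were the highest 3 of the 12, the anti-C5 kidneys all lay above the sham group, and kidney 9 lay within the sham range. By its count, Prdx1 ranked between 59 and 66 among all genes in sham kidneys and between 10 and 15 with isotype.

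Prdx1 was 1.76-fold higher with isotype than in sham (0.82 ± 0.154, edgeR adjusted p = 0.00071). It was 1.46-fold lower with anti-G-CSFR than with isotype (-0.55 ± 0.154, adjusted p = 0.00817) and 1.33-fold lower with anti-C5 (-0.42 ± 0.153, adjusted p = 0.0338). The last of these calls was lost without kidney 5 (-0.44, adjusted p = 0.0624), kidney 6 (-0.32, adjusted p = 0.136) or kidney 10 (-0.31, adjusted p = 0.121), and in a fit of only these 2 groups (-0.43, adjusted p = 0.0934). The 3 peroxiredoxins summed to 3001 to 3212 CPM in sham and 3452 to 3855 CPM with isotype. They summed to 2917 to 3968 CPM with anti-G-CSFR and 3319 to 4328 CPM with anti-C5, ranges that both overlapped that of isotype.

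Srxn1 encodes sulfiredoxin, which returns over-oxidised peroxiredoxins such as Prdx1 to work, and it had the largest rise among the 14 listed genes of the thioredoxin system. It was at 140, 118 and 126 CPM in sham and at 1048, 1902 and 2323 CPM with isotype. With anti-G-CSFR it measured 137, 114 and 161 CPM, and with anti-C5 125, 280 and 124 CPM. The isotype kidneys lay far above all others, and kidneys 9 and 11 were the highest of their groups. Srxn1 rose by 3.78 ± 0.368 from sham to isotype (edgeR adjusted p = 9.56e-06) and was lower than isotype by -3.68 ± 0.366 with anti-G-CSFR and -3.32 ± 0.360 with anti-C5.

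The bases upstream of Prdx1 and Srxn1, which rose, and of Sod2 and Cat, which fell, are shown as examples. Srxn1 was the only gene outside the set of enzymes that was searched and shown. Sod1, which fell and holds an antioxidant response element core, is not printed. These examples do not compare genes that rose with genes that fell. Each run is the 250 bases before the RefSeq start on GRCm38.p6, 5′ to 3′ on the strand of the gene: chr4:116685349-116685598 (plus) for Prdx1, chr2:152105274-152105523 (plus) for Srxn1, chr17:13007589-13007838 (plus) for Sod2 and chr2:103485154-103485403 (minus) for Cat. Capitals mark matches, on either strand, to the AP-1 site TGANTCA or to the core of the antioxidant response element, TGACNNNGC.
Prdx1: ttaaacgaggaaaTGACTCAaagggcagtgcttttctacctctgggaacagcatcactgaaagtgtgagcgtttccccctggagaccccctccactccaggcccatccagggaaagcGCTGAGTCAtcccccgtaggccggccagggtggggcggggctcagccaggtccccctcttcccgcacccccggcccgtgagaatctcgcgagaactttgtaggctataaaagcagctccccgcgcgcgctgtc
Srxn1: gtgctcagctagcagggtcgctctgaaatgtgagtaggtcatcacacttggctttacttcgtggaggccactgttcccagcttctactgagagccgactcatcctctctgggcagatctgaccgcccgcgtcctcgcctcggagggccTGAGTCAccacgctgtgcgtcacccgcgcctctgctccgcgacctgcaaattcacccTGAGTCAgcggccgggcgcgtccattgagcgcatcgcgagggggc
Sod2: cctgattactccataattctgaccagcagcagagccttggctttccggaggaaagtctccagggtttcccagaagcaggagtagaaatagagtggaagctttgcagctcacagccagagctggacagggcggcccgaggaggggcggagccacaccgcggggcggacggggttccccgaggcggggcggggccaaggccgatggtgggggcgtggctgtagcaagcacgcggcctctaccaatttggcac
Cat: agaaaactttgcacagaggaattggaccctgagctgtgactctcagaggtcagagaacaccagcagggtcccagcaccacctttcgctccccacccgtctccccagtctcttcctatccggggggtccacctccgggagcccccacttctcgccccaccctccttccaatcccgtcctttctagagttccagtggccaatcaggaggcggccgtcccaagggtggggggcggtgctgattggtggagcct

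Of the 10 enzymes, 9 matched an entry of the RefSeq promoter table, and Sod3 did not. Prdx1 held an antioxidant response element core at -133 to -125 on the reverse strand, GCTGAGTCA as read on the printed strand, which overlaps an AP-1 match at -131 to -125, and a further AP-1 match at -237 to -231. Srxn1 held AP-1 matches at -102 to -96 and -45 to -39. Among the other 8 enzymes with an entry, only Sod1 held an antioxidant response element core, at -56 to -48, and 0 held an AP-1 match. The same windows of 10428 measured genes held the antioxidant response element core in 12% and the AP-1 site in 4.45%. The GC box GGGCGG, present 4 times in the Sod2 run and once in the runs of Prdx1, Srxn1 and Cat, occurred in 58.5% of all windows. These matches are a description of the letters only.

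Compared with sham, neither blocking antibody gave a called change in any of the 10 enzymes, and the same held for every gene of the table: 0% of genes were called higher and 0% lower with anti-G-CSFR, with anti-C5, and between the antibodies. At an unadjusted p below 0.05 the edgeR test gave 778 genes (5.93%) for anti-G-CSFR against sham and 1487 (11.3%) for anti-C5 against sham. Between the antibodies it gave 207 (1.58%). Where no gene differed, that threshold would pass a share of about 0.05. DESeq2 called 1, 112 and 2 genes and limma-voom 0, 0 and 0. A p above the threshold does not show that levels were alike, so the 95% intervals of the log2 differences are given.

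For anti-G-CSFR against sham, the differences of the 10 ran from -0.27 for Cat (interval -0.56 to 0.03) to 0.51 for Gpx4 (-0.01 to 1.02), with a median of 0.12. For anti-C5 against sham they ran from -0.37 for Cat (-0.67 to -0.08) to 0.51 for Gpx4 (-0.01 to 1.02), with a median of 0.04. Cat and Prdx1 were the members whose unadjusted interval against sham left out 0, both with anti-C5; Prdx1 stood at 0.40 (0.07 to 0.74). Their edgeR adjusted p-values were 0.371 and 0.375. DESeq2 called Cat lower with anti-C5 than in sham (-0.38, adjusted p = 0.039). Ranges did not overlap for Gpx4 and Cat with anti-G-CSFR, beside 18.4% of all genes, and for Gpx4, Cat and Prdx1 with anti-C5, beside 18% of all genes.

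Between the antibodies the 10 differences lay between -0.13 for Prdx1 (interval -0.47 to 0.20) and 0.17 for Gpx3 (-0.20 to 0.54). All 10 pairs of ranges overlapped, while 4.28% of all genes did not. Over the 10 enzymes the interval bounds reached from -0.57 (Sod3) to 0.64 (Gpx1).

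The 2 antibody-treated kidneys with high injury markers also had the lowest levels of most enzymes within their groups. Kidney 9 was the lowest of the anti-G-CSFR group in 8 of the 10 enzymes, among them Prdx1, which rose with isotype, and the highest in Gpx3. Kidney 11 was the lowest of the anti-C5 group in 9, and kidney 12 the highest in all 10. Being lowest in most enzymes was not particular to kidneys with high injury markers. Kidney 1 was the lowest of the sham group in 9, with the lowest injury marker sum of all kidneys, 1653 CPM. Proximal tubule markers summed to 34479 CPM in kidney 9 and 33675 CPM in kidney 11, against 48418 to 58569 CPM in the other 4 antibody-treated kidneys. Neutrophil markers summed to 3.03 CPM in kidney 9 and to 127 CPM in kidney 11, beside 51.7 to 136 CPM with isotype.

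Kidneys 9 and 11 were picked from these same data and had the lowest levels of most enzymes in their groups. Leaving them out raises the group means of those enzymes, so the fit without them is not an independent check of the calls. Without kidneys 9 and 11 the fit called 9 enzymes higher and Prdx1 lower for each antibody against isotype. Over all genes it called 4248 higher and 4104 lower for anti-G-CSFR, and 4144 higher and 4009 lower for anti-C5. The differences for Sod2 were then 1.61 for both antibodies, those for Prdx5 0.83 with anti-G-CSFR and 0.80 with anti-C5, and those for Prdx1 -0.41 (edgeR adjusted p = 0.0334) and -0.42 (adjusted p = 0.0315). Against sham, 0 enzymes and 0 of all genes were called in that fit for either antibody.

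To compare levels between genes, CPM were divided by the length of each gene's exons in kilobases (RPKM). Gpx3 was the highest of the 10 in all 4 groups, at 13899 ± 757 RPKM (SD, n = 3) in sham and 6821 ± 808 with isotype. Gpx1 came next in sham at 1126 ± 181 RPKM, followed by Prdx5 at 656 ± 35.6, Cat at 622 ± 35.8, Gpx4 at 531 ± 41.5, Prdx1 at 458 ± 18.3 and Prdx3 at 220 ± 10.5. Sod3 at 138 ± 17.5, Sod1 at 124 ± 8.54 and Sod2 at 38.9 ± 2.12 closed the order.

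By exon length, neighbours in the sham order whose ranges overlapped were Prdx5 with Cat, and Sod3 with Sod1. By the length of the coding transcripts they were Gpx1 with Prdx5, Cat with Gpx4, and Gpx4 with Prdx1. With isotype the order changed at the top: Prdx1, at 808 ± 95.9 RPKM, came directly after Gpx3, ahead of Gpx1 at 485 ± 125 and Prdx5 at 451 ± 29.3, and its range lay apart from both. Sod2 was last in all 4 groups, at 13.0 ± 1.27 RPKM with isotype. Levels depend on the gene model: Prdx5 was at 1859 ± 101 RPKM in sham by coding transcript length. Sod1 also changed its place, since its exons add up to 3970 bases over all annotated transcripts but its coding transcript has 641, and by coding transcript length it ranked 7th in sham instead of 9th. The places of Gpx3, of Sod2 and of Prdx1 with isotype were the same by either length.

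**Figure D3:**
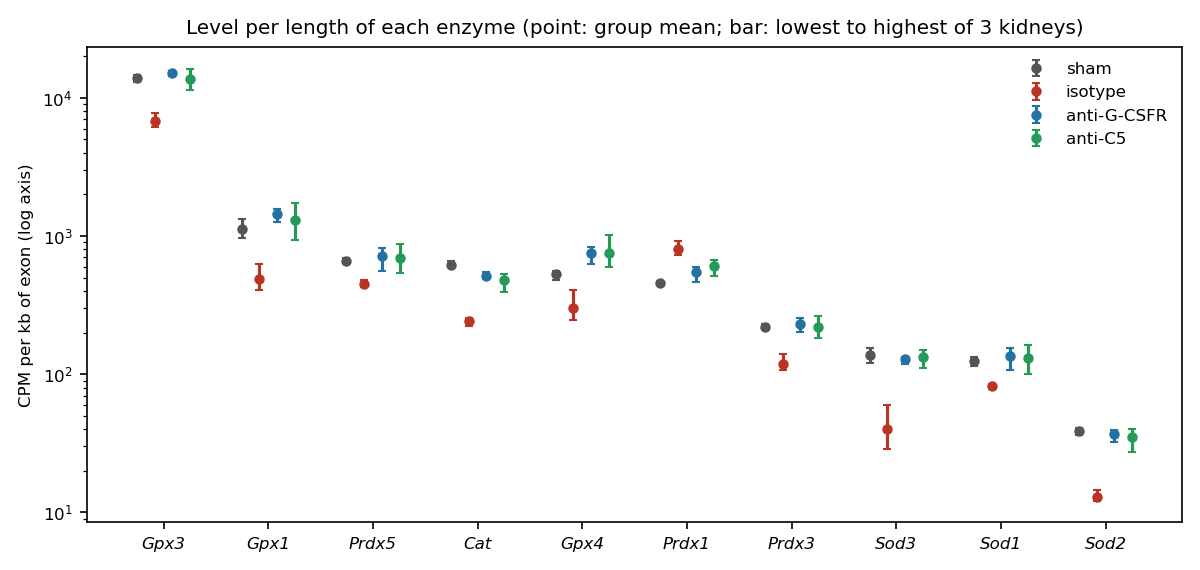
Level per length of each enzyme on a log axis, in CPM per kilobase of exon, ordered by the sham mean. Points are means of 3 kidneys and bars run from the lowest to the highest kidney; Gpx3 lies above and Sod2 below every other enzyme in each group, and Prdx1 has its highest point with isotype.

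The genes that supply or accompany the enzymes were taken from lists drawn up by function, and the counts below are for isotype against sham, where 32.1% of all genes rose, 30.7% fell and the median was 0.03. Of 12 measured further peroxidases and superoxide helpers, 2 rose and 5 fell, with a median of -0.18. Lpo, 1 of the 2 that rose and named after its value was seen, averaged 5.87 CPM with isotype. It averaged 0.972 CPM in sham, 1.87 CPM with anti-G-CSFR and 1.16 CPM with anti-C5. Its place in the table rests largely on the isotype-treated kidneys, so its rise may be fixed by how the table was made. Prxl2b, a peroxiredoxin-like reductase, fell by 2.25 ± 0.212 from 12.9 to 2.70 CPM. Ccs, the chaperone that loads copper into Sod1, fell by 1.63 ± 0.178, from 110 ± 2.27 CPM (SD, n = 3) to 35.5 ± 7.53 CPM, while Sod1 itself fell by 0.60. Chosen after their values were seen, the other peroxiredoxins of the family did not pass the test in this comparison: Prdx2 at -0.31 ± 0.163, Prdx4 at -0.04 ± 0.148 and Prdx6 at 0.16 ± 0.159.

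Of 14 partners of the thioredoxin system, 5 rose, near the share of 32.1% over all genes, and 2 fell, with a median of 0.21. Named after their values were seen, those that rose were Srxn1, Txnrd1, Glrx, Txnrd3 and Txn1, and those that fell were Sesn1 and Glrx2. Txnrd1, the cytosolic thioredoxin reductase, rose by 1.22 ± 0.170, from 307 ± 42.0 to 715 ± 9.56 CPM. Txn1, the cytosolic thioredoxin that gives electrons to Prdx1, rose by 0.84 ± 0.127. The mitochondrial pair that serves Prdx3 did not pass the test: thioredoxin Txn2 stood at -0.29 ± 0.142 and its reductase Txnrd2 at -0.03 ± 0.104.

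Of 15 genes of glutathione and NADPH supply, 5 rose and 8 fell, with a median of -0.59. The share that rose was close to the 32.1% of all genes. The mitochondrial NADPH sources Nnt and Idh2 changed by -1.84 ± 0.158 and -1.79 ± 0.182. Nnt went from 153 ± 4.80 to 42.8 ± 6.58 CPM and Idh2 from 482 ± 27.7 to 140 ± 7.04 CPM. Named after their values were seen, the 5 that rose were Slc7a11, the cystine carrier, Chac1, which degrades glutathione, the NADPH-forming enzymes Pgd and G6pdx of the pentose phosphate pathway, and Gsr, which reduces oxidised glutathione. Slc7a11 was at 0.155 CPM in sham and 33.4 CPM with isotype, and Chac1 at 1.03 and 7.13 CPM. Both are in the table only because of their level in isotype-treated kidneys, so their rise was fixed by how the table was made. Pgd rose by 1.82 ± 0.265, G6pdx by 1.43 ± 0.169 and Gsr by 0.92 ± 0.163.

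**Figure D4:**
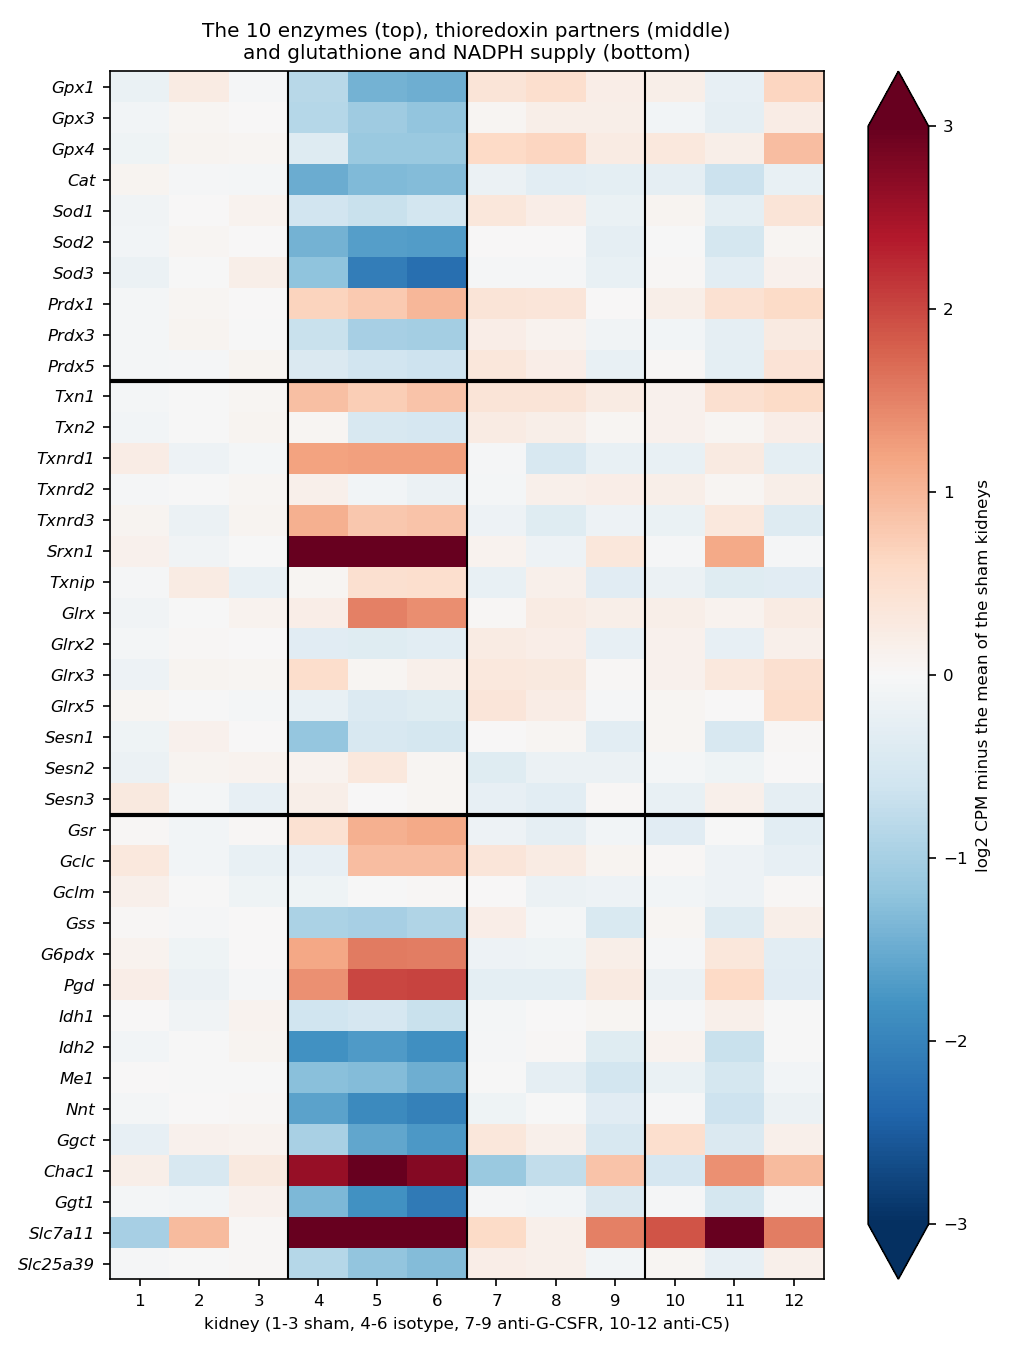
Log2 CPM of each gene in each kidney minus the mean of the 3 sham kidneys; rows are the 10 enzymes, the 14 thioredoxin partners and the 15 genes of glutathione and NADPH supply, columns the 12 kidneys. The isotype-treated kidneys are low in 9 enzymes, Nnt and Idh2 and high in Prdx1, Srxn1, Txnrd1, Pgd and G6pdx; colours end at 3 in either direction.

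Of 12 genes of selenoprotein synthesis and selenium transport, which glutathione peroxidases need, 2 rose and 6 fell, with a median of -0.35. Sephs2, which makes the selenium donor, fell by 1.20 ± 0.155, and Lrp2, the receptor by which proximal tubule cells take up selenoprotein P, fell by 2.42 ± 0.247. Lrp2 is also on the proximal tubule list. Named after its value was seen, Lrp8, another receptor for selenoprotein P, rose by 4.19 ± 0.557, and Selenbp1 by 0.93 ± 0.198.

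Of 23 measured sources of superoxide or peroxide, 7 rose, near the share of 32.1% over all genes, and 11 fell, with a median of -0.35. Ncf4, 1 of the 7 and named after its value was seen, averaged 2.14 CPM with isotype. It averaged 0.890 CPM in sham, 0.807 CPM with anti-G-CSFR and 1.56 CPM with anti-C5. Its place in the table rests largely on the isotype-treated kidneys, so its rise may be fixed by how the table was made. The peroxisomal oxidases Acox2 and Acox3, whose product catalase removes, changed by -3.27 ± 0.219 and -2.23 ± 0.180. Of 19 peroxisome assembly genes, 0 rose and 14 fell, with a median of -0.59, and the membrane proteins Pxmp2 and Pxmp4 changed by -3.03 ± 0.266 and -1.59 ± 0.144. Of 17 mitochondrial housekeeping genes, 1 rose and 8 fell, with a median of -0.29. Vdac1, an outer membrane channel, fell by 1.10 ± 0.134, and Tomm40, named after its value was seen, was the gene that rose, by 0.48 ± 0.0952.

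Of 14 measured genes of copper, manganese, iron and haem supply, 2 rose and 10 fell, with a median of -0.61. Slc31a1, the copper importer, fell by 1.17 ± 0.113, and Slc39a14, a carrier of manganese, iron and zinc, rose by 1.22 ± 0.123. The other gene that rose, named after its value was seen, was Hmox1, which degrades haem, by 3.67 ± 0.532.

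**Figure D5:**
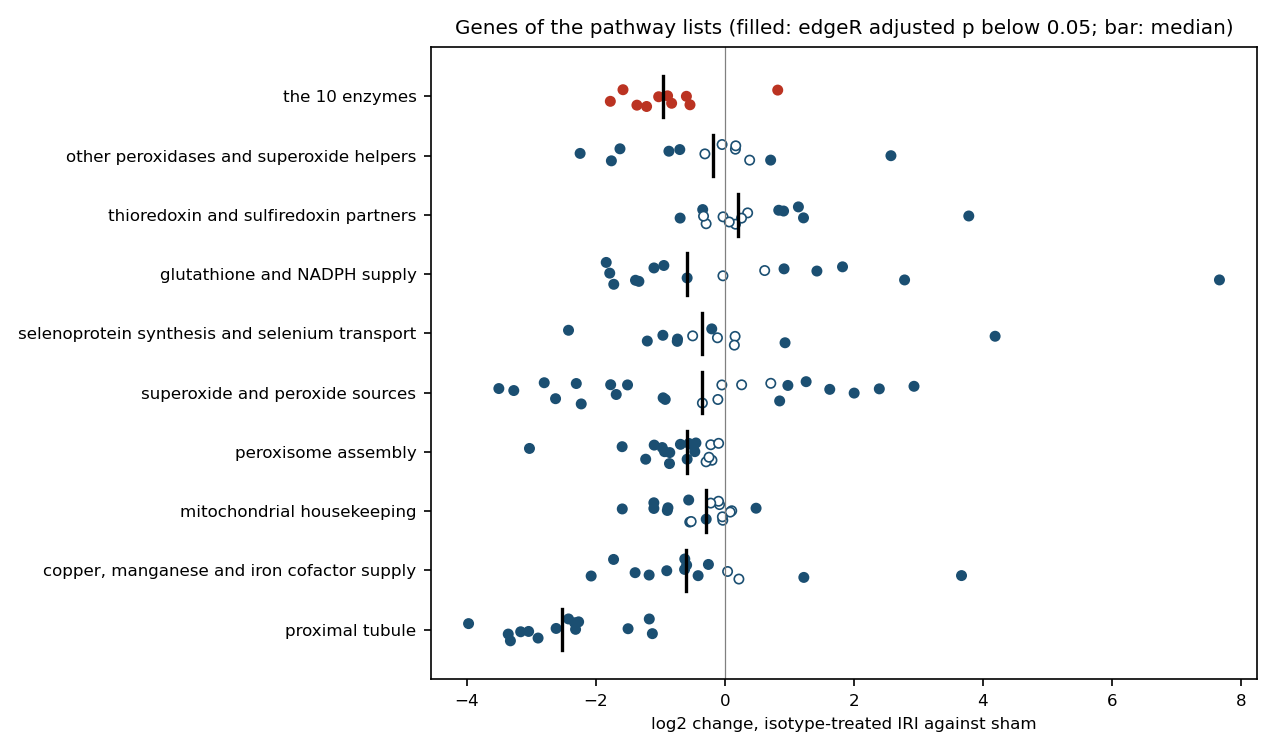
Log2 change of each gene between isotype-treated IRI and sham kidneys, for the 10 enzymes (red), 8 pathway lists and the proximal tubule markers. Filled dots have an edgeR adjusted p below 0.05 and black bars are medians, which run from -2.52 for the proximal tubule to 0.21 for the thioredoxin partners.

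For the blocking antibodies against isotype, counts are given for 3 of these lists, and those of the other lists are not reported here. For anti-G-CSFR, 4 thioredoxin partners were higher and 7 lower, 8 genes of glutathione and NADPH supply were higher and 5 lower, and 15 peroxisome assembly genes were higher and 0 lower. For anti-C5 the counts were 4 and 6, 8 and 6, and 15 and 0. Over all genes 31.5% were higher and 32% lower for anti-G-CSFR, and 30.5% and 29.8% for anti-C5. The medians of the 3 lists were -0.33, 0.59 and 0.64 for anti-G-CSFR and -0.21, 0.62 and 0.50 for anti-C5, beside -0.02 and -0.01 for all genes. The 4 of 14 thioredoxin partners that were higher with either antibody are close to the shares over all genes. So are the 5 of 15 supply genes that were lower with anti-G-CSFR. Slc7a11 and Chac1 are among the lower supply genes for both antibodies, and are in the table only because of their level in isotype-treated kidneys. Txnrd1 was lower than with isotype by -1.46 ± 0.171 with anti-G-CSFR and -1.29 ± 0.170 with anti-C5. Ccs was higher by 1.62 ± 0.178 and 1.52 ± 0.178, Nnt by 1.68 ± 0.158 and 1.58 ± 0.158, and Acox2 by 2.88 ± 0.216 and 2.74 ± 0.215. Against sham, 0 genes of these lists were called for either antibody.

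The enzymes also differed in how alike their profiles were over the 12 kidneys, measured as the root mean square difference of log2 CPM after each gene was centred on its own mean. The closest pair was Sod1 with Prdx5, at 0.0579, followed by Gpx3 with Prdx3, at 0.121, and Sod1 with Prdx3, at 0.159. This measure is not scaled by how much a gene varies, so genes that vary little tend to lie close. The SD of log2 CPM over the kidneys was 0.340 for Sod1 and 0.323 for Prdx5, against 0.823 for Sod3. Prdx1 had no near neighbour among the others, its closest being Prdx5 at 0.558. Nearest genes outside the set were Cox6a1 for Sod1 at 0.0647, Xylb for Sod3 at 0.108 and Asah2 for Cat at 0.0767. For the glutathione peroxidases they were Ndufa6 for Gpx1 at 0.1, Mtarc2 for Gpx3 at 0.0832 and Ndufb9 for Gpx4 at 0.0579. For the peroxiredoxins they were Nsmce2 for Prdx1 at 0.0789, Fam149b for Prdx3 at 0.0585 and Bri3 for Prdx5 at 0.0695. The range of a profile over the kidneys was widest for Sod3, at 2.44 on the log2 scale, and narrowest for Prdx5, at 1.04.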

How the data were processed

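RNA was measured in 12 mouse kidneys by strand-specific 100 bp single-end sequencing, per the labels' protocols. The deposited file holds raw counts per gene by Entrez identifier, made by the authors with TopHat2 2.1.0, Bowtie2 2.2.5 and featureCounts on GRCm38.p4, per the submitters' processing notes; for featureCounts, the version, strand setting and annotation were not given in the sources used here. Of 13124 identifiers, 13074 matched a symbol. Scaled by library totals alone, without TMM factors, the 3rd highest of the 12 CPM values of each listed gene was at least 2.01. Genes with fewer reads are therefore not in the table.

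All 12 libraries entered 1 edgeR 4.0.16 quasi-likelihood fit (R 4.3.3, TMM scaling, robust, 8 residual degrees of freedom), with groups from the sample titles; the fit's common biological CV was 16.42%. The low-count filter removed 0 genes. SEs were derived from the F statistic, and 95% intervals from the SE. The script was tested on simulated data. Lengths and positions came from GENCODE vM21 (GRCm38), promoters from RefSeq GRCm38.p6. Exact tests of single values were not used, since 3 against 3 kidneys limit them.

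Named were the 10 enzymes, the 2 genes with the smallest p for isotype against sham in each of 8 pathway lists, the gene with the nearest profile for each enzyme, the antibody targets and marker lists. A few results that this rule names are not reported here. Members and lists were chosen with earlier results of these data known. Alternatives were other scalings (RLE, upper quartile, library totals alone), a filter at a mean of 10 CPM, no filter, DESeq2 1.42.0, limma-voom 3.58.1, a fit without robust estimation, only the compared libraries, and leaving out each kidney or kidneys 9 and 11.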

Additional observations from a re-analysis of the deposited data

How the results depend on the processing

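Each of the 60 results (10 enzymes in 6 comparisons) was computed under 22 alternatives: 56 stayed on their side of the threshold under each of them, 3 lost a call under some, 1 gained one and 0 called results changed direction. The results that lost or gained a call are those of Prdx5 and Prdx1 against isotype or sham and of Cat for anti-C5 against sham, whose values stand beside them in the text. With only the compared libraries the count of enzymes lower with anti-C5 than with isotype was 0, and leaving out 1 kidney at a time it was 0 to 1. DESeq2 called 1 enzyme lower with anti-C5 than in sham. Over all genes, DESeq2 called 1 higher for anti-G-CSFR against sham, 70 higher and 42 lower for anti-C5 against sham, and 2 lower for anti-G-CSFR against anti-C5; only the compared libraries gave 41 higher and 2 lower for anti-G-CSFR against sham. With library totals as the only scaling, all genes had a median of 0.23 in place of 0.03 for isotype against sham, -0.23 in place of -0.02 for anti-G-CSFR against isotype and -0.19 in place of -0.01 for anti-C5 against isotype, so directions are relative to TMM scaling. The split of calls, 4207 higher and 4034 lower for isotype against sham, became 5586 and 3095; 4137 and 4197 for anti-G-CSFR against isotype became 3107 and 5554; and 4006 and 3913 for anti-C5 against isotype became 3106 and 5111. Enzymes called lower for isotype against sham were then 8. The cause of these shifts was not tested, beyond the change of scaling or of libraries that defines each alternative. No paired analysis was possible because the kidneys are numbered 1 to 12 and share no replicate number between groups. With 3 kidneys a group, the stated intervals give the precision of each difference.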
